A study of Mus musculus with 20 samples.

Results

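The comparison described here asked what the loss of the transcription factor C/EBP beta changed in brown fat after acute cold. It set 5 RNA-seq libraries from mice with an adipose-specific knockout of CEBPB (KO_cold) against 5 libraries from CEBPB wild-type mice (WT_cold), 10 of the 20 libraries in the series. All 10 came from brown adipose tissue (BAT) after 4 h of cold stress, so the genotypes were compared within the cold. The other 10 libraries came from the same genotypes kept at room temperature (KO_RT and WT_RT, 5 each). They served to ask whether an effect of the knockout in the cold differed from that at room temperature. They also entered the same fit. The gene filter and the estimate of spread behind the p-values of single genes in the cold thus drew on all 20 libraries. The labels do not name the promoter that drives the recombinase, the part of the gene that was removed, the temperature of the cold exposure, or the age and sex of the mice. They also do not say that each library came from a separate animal, so every p-value measures only the spread between libraries, which may be technical.

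Brown fat burns fatty acids and glucose to make heat. Cold drives it through sympathetic nerves: noradrenaline acts on beta-adrenergic receptors, cAMP rises, lipid droplets are broken down, and the mitochondrial uncoupling protein UCP1 lets the fuel energy leave as heat. C/EBP beta belongs to the family of CCAAT/enhancer-binding proteins, basic leucine zipper factors that bind DNA as dimers. It is known as an early factor in the differentiation of fat cells and as a factor whose gene responds to cAMP.

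The cold libraries held 27.1 to 55.2 M counts in genes (M, mega), with a mean of 42.9 M in WT_cold and 32.08 M in KO_cold. An exact 2-sided permutation test of depth gave p = 0.0317 and p = 0.102 after Benjamini-Hochberg adjustment over 16 library measures (n = 5 per group). Levels are therefore given as CPM, read counts scaled to a common library size. On the first principal component of all 20 libraries, WT_cold replicate 5 lay at 26.64, nearer the room temperature libraries than the other WT_cold libraries (37.59 to 51.76) and the KO_cold libraries (47.79 to 51.79). Where leaving out 1 library ended the call in the cold of a gene described here, this is said beside it. Interactions were checked in this way only for the 16 genes taken by rank, and room temperature calls only for Cebpb. The labels name no batch.

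The tissue label was checked against 12 brown adipocyte markers, all of which were detected in all 10 libraries. Ucp1 stood at 11989.9 ± 866 CPM in WT_cold and 12979 ± 725 CPM in KO_cold (mean ± SD, n = 5, here and below), and the summed level of the 12 markers was 21700 to 26700 CPM against 21400 to 23600 CPM. The tissue also holds other cells, and edgeR called no gene among the tested markers of macrophages (14), neutrophils (3), lymphocytes (12), erythrocytes (8), endothelium (14), nerve with Schwann cells (8), skeletal muscle (18) and white fat (5). Of these 82 genes, 7 had an unadjusted p below 0.05, and DESeq2 called 4, all skeletal muscle markers that were lower. Among all 15233 tested genes, 3042 (20%) had an unadjusted p below 0.05, and DESeq2 called 1440. Endothelial markers summed to 1200 to 1400 CPM in WT_cold and 1280 to 1470 CPM in KO_cold, macrophage markers to 143 to 202 and 162 to 199 CPM, and lymphocyte markers to 2.66 to 6.34 and 3.05 to 5.6 CPM. Skeletal muscle markers summed to 48.2 to 88.8 CPM in WT_cold and 42.8 to 48.3 CPM in KO_cold, with a median difference of -2.59 on the log2 scale. Their mean log2 CPM was 0.4871 and -0.0249 in WT_cold replicates 1 and 3, and -2.656 to -2.31 in the other 8 libraries. The difference of the group means was -1.176, and -0.704 without WT_cold replicate 1. Fibroblast and adipocyte progenitor markers summed to 925 to 1020 CPM in WT_cold and 1070 to 1190 CPM in KO_cold, without overlap. In these bulk samples, fewer cells of a type and less RNA per cell cannot be told apart.

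The targeted gene was checked first. Cebpb (Ensembl ENSMUSG00000056501.3, GRCm38 chromosome 2, 167688915 to 167690418, plus strand) was at 141, 146, 156, 167 and 108 CPM in WT_cold replicates 1 to 5 and at 1.61, 2.16, 2.27, 1.79 and 1.78 CPM in KO_cold replicates 1 to 5. The lowest wild-type library thus lay far above the highest knockout library, and the level was 75.1-fold lower in KO_cold. The log2 fold change was -6.23 ± 0.20 (± SE, KO_cold minus WT_cold, here and below) with an adjusted p of 2.04e-13 in edgeR's quasi-likelihood test, adjusted by the Benjamini-Hochberg method over 15233 genes. Between 54 and 61 Cebpb reads remained in each knockout library. The source of these reads was not tested.

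No other member of the C/EBP family passed the threshold of 0.05 in the same test. Cebpa, the relative that works later in fat cell differentiation, was at 112, 76.6, 92.7, 119.5 and 262 CPM in WT_cold and at 106, 98.0, 90.9, 96.2 and 122 CPM in KO_cold. The 2 groups overlapped, and the highest value of all belonged to WT_cold replicate 5. The difference was -0.37 ± 0.23 (adjusted p = 0.417), and without that library it was 0.04 (adjusted p = 0.911). Cebpg, which dimerises with other family members, was at 94.5 ± 11.2 and 81.1 ± 7.88 CPM (-0.22 ± 0.091, adjusted p = 0.167). Cebpd, known as an early factor beside C/EBP beta, was at 3.59 ± 0.401 and 4.85 ± 0.769 CPM (0.43 ± 0.17, adjusted p = 0.141). Ddit3, the stress factor CHOP, was at 5.62 ± 0.863 and 5.39 ± 0.467 CPM (-0.06 ± 0.10, adjusted p = 0.827). Cebpz differed by -0.20 ± 0.089 (adjusted p = 0.21) and passed without WT_cold replicate 5, at -0.28 with adjusted p = 0.0307. Cebpe had 0 to 6 reads per library and was too low to test.

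Across all genes, 1173 of 15233 passed the threshold (7.7%), 534 higher in KO_cold (3.51%) and 639 lower (4.19%). Most differences were small: the median size among the genes that passed was 0.486 on the log2 scale, and 115 genes were at least 2-fold higher (0.755%) and 111 at least 2-fold lower (0.729%). Without overlap between the groups were 1067 genes in all (7%), and 3042 (20%) had an unadjusted p below 0.05. Of the 1173 genes called, 807 (68.8%) did not overlap. The first principal component of the 10 cold libraries separated the genotypes, at -39.8 to -9.277 in WT_cold and 14.45 to 24.21 in KO_cold (exact 2-sided permutation p = 0.00794, the smallest that 5 against 5 libraries can give; adjusted p = 0.0317 over 16 measures). The difference of the group means was 42.14, and 42.05 to 43.22 on leaving out any 1 KO_cold library. In these runs the exact p stayed at 0.00794, while the adjusted p was 0.0635.

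**Figure D1:**
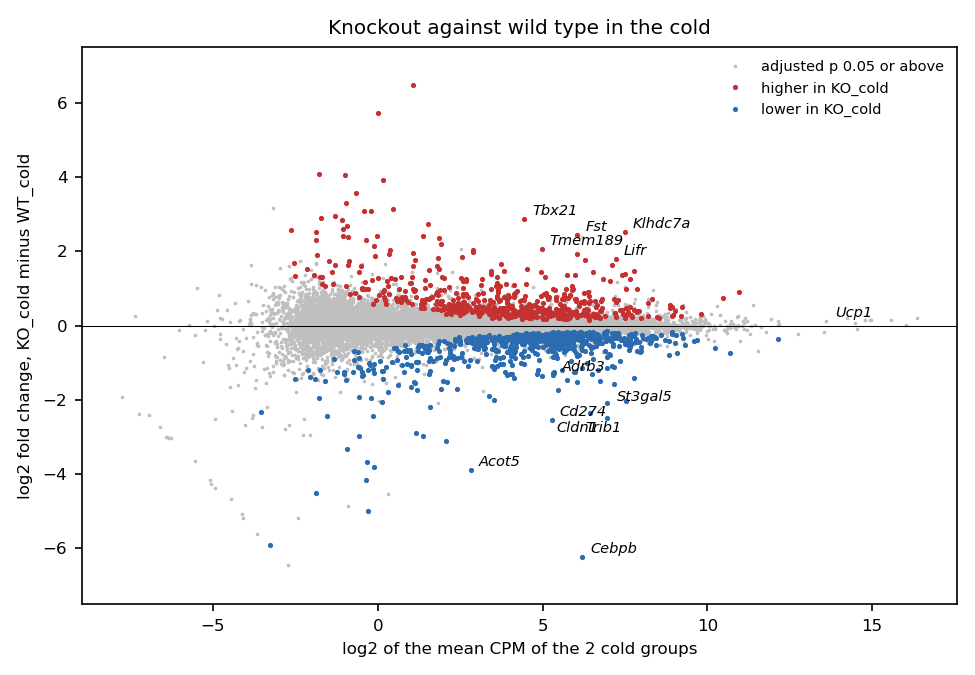
Each point is 1 of the tested genes. The horizontal axis gives the log2 of its mean CPM over the 2 cold groups and the vertical axis its log2 fold change, KO_cold minus WT_cold, cut at 7.5 on each side with 2 uncalled genes outside. Red marks the 534 genes that were higher in KO_cold, blue the 639 that were lower and grey the rest. Cebpb lies near -6.23, below the other labelled genes, and Ucp1, at high CPM, near 0.

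For each direction, 15 leading genes were taken by size of change from the genes called. They had to reach a mean of 5 CPM in a cold group, show no overlap between groups and carry more than a predicted gene's name. Cebpb led those that fell, and receptors, ligands and regulators of signalling were among the others. Trib1, a pseudokinase that brings C/EBP alpha to the ubiquitin ligase COP1, fell 5.10-fold. It was at 141, 146, 151, 167 and 118 CPM in WT_cold and at 25.2, 30.9, 25.5, 24.1 and 35.9 CPM in KO_cold, with every knockout library far below every wild-type library (-2.35 ± 0.13, adjusted p = 4.6e-10). Met, the receptor of hepatocyte growth factor, was at 82.0, 104, 90.0, 93.3 and 125 CPM and at 31.2, 46.7, 38.8, 28.2 and 26.8 CPM (-1.53 ± 0.14, adjusted p = 6.87e-07). The highest knockout library of Met lay well below the lowest wild-type library. Cd274, the immune checkpoint ligand PD-L1, was at 52.7, 47.8, 98.7, 65.1 and 65.3 CPM against 12.5, 9.76, 10.9, 6.80 and 16.5 CPM (-2.54 ± 0.25, adjusted p = 3.3e-06).

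Other leading genes that fell encode proteins of cell contacts, membranes and glycolipids. Cldn1, the tight junction protein claudin 1, was at 163, 227, 279.7, 206 and 172 CPM in WT_cold and at 41.0, 51.1, 26.2, 20.5 and 49.2 CPM in KO_cold (-2.48 ± 0.37, adjusted p = 0.000354). St3gal5 makes the ganglioside GM3 by adding sialic acid to a glycolipid. Its levels were 239, 243, 173, 213 and 128 CPM in WT_cold and 38.8, 47.8, 50.2, 62.3 and 36.0 CPM in KO_cold (-2.08 ± 0.22, adjusted p = 8.96e-06). For both genes the lowest wild-type library was above 2 times the highest knockout library. Gpc1, the heparan sulphate proteoglycan glypican 1, fell from 6.33 ± 1.43 to 2.20 ± 0.412 CPM (-1.53 ± 0.21, adjusted p = 4.2e-05), and the membrane protein gene Tmem56 from 16.4 ± 4.88 to 4.47 ± 1.39 CPM (-1.89 ± 0.24, adjusted p = 5.71e-05).

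Several enzymes fell as well. Acot5, an acyl-CoA thioesterase of peroxisomes, was at 6.59, 10.01, 25.2, 14.6 and 9.61 CPM in WT_cold and at 0.567, 1.06, 0.706, 0.835 and 1.25 CPM in KO_cold, a change of -3.90 ± 0.41 (adjusted p = 5.12e-06). It has near-identical relatives in a cluster, so the assignment of its reads is uncertain. Agbl2, which trims glutamates from tubulin, was at 5.23, 5.80, 9.67, 10.1 and 6.70 CPM and at 0.358, 1.10, 1.34, 0.526 and 1.04 CPM (-3.12 ± 0.35, adjusted p = 8.71e-06). Usp33, a deubiquitinating enzyme, was abundant and tight, at 185, 204, 235, 238 and 207 CPM against 62.5, 78.2, 76.4, 68.3 and 74.6 CPM (-1.57 ± 0.086, adjusted p = 5.81e-11). Adcy10, the soluble adenylyl cyclase, fell from 5.79 ± 1.89 to 1.77 ± 0.680 CPM (-1.71 ± 0.42, adjusted p = 0.0167), a call that was lost without WT_cold replicate 5 (adjusted p = 0.0519).

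Tectb, known for beta-tectorin of the inner ear, was at 17.7, 19.2, 19.7, 22.6 and 12.7 CPM in WT_cold and at 4.75, 4.47, 3.57, 4.61 and 5.57 CPM in KO_cold (-1.99 ± 0.17, adjusted p = 2.02e-07). Als2cr12 fell from 8.08 ± 4.08 to 2.48 ± 0.621 CPM (-1.71 ± 0.26, adjusted p = 0.000248). Mylk, myosin light chain kinase, was at 134, 140.0, 226, 859 and 119 CPM against 70.7, 73.0, 71.6, 67.9 and 75.7 CPM. The knockout libraries lay in a narrow range and WT_cold replicate 4 far above the other libraries. The change of -2.04 ± 0.43 (adjusted p = 0.00646) was -1.11 without that library, and in a fit of only the 2 cold groups it did not pass (adjusted p = 0.0874).

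Genes that rose in the knockout were led by a transcription factor. Tbx21, or T-bet, is known for directing type 1 helper T cells and natural killer cells. It was at 8.10, 8.76, 2.82, 5.51 and 0.596 CPM in WT_cold and at 39.2, 38.3, 39.3, 40.5 and 32.0 CPM in KO_cold, so that even the lowest knockout library was above 3 times the highest wild-type library. The rise was 7.26-fold (2.86 ± 0.40, adjusted p = 0.000182). No member of the 12 tested lymphocyte markers was called, and the mean log2 CPM of the list was -1.78 ± 0.327 in WT_cold and -1.775 ± 0.2655 in KO_cold. At room temperature Tbx21 was near 1 CPM in both genotypes (1.01 ± 0.400 in WT_RT and 0.997 ± 0.134 in KO_RT).

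Secreted proteins and receptors were also among the genes that rose. Fst, follistatin, is a secreted protein that binds activins. Its levels were 17.7, 32.7, 31.8, 9.76 and 10.5 CPM in WT_cold and 62.9, 148, 173, 79.2 and 94.4 CPM in KO_cold (2.44 ± 0.35, adjusted p = 0.000222). Both groups were spread widely, and the choice of the leading genes required that they not overlap. Lifr, the receptor of leukaemia inhibitory factor, was at 71.7, 76.5, 75.1, 69.9 and 41.5 CPM against 119, 302, 289, 323 and 119 CPM (1.78 ± 0.25, adjusted p = 0.00018). Its KO_cold libraries fell into 2 near 119 CPM and 3 near 300 CPM. Pon1, a lactonase carried on high-density lipoprotein, was at 26.5, 32.6, 16.0, 43.6 and 17.6 CPM against 73.0, 95.8, 137, 128 and 85.5 CPM (1.93 ± 0.25, adjusted p = 7.13e-05). Ptgds, which makes prostaglandin D2, rose from 1.73 ± 0.676 to 5.24 ± 2.89 CPM (1.60 ± 0.33, adjusted p = 0.0042).

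Klhdc7a, which encodes a kelch domain protein, had the smallest adjusted p among these genes after Tmem189. It was at 65.8, 41.8, 51.6, 40.00 and 67.0 CPM in WT_cold and at 313, 326, 365, 257 and 266 CPM in KO_cold (2.52 ± 0.20, adjusted p = 2.68e-07). Chdh, the mitochondrial choline dehydrogenase, was at 44.4, 45.4, 26.2, 30.5 and 30.3 CPM against 84.6, 90.5, 151, 135 and 138 CPM (1.76 ± 0.17, adjusted p = 2.2e-06). Rasl12, a Ras-like GTPase, rose from 11.8 ± 1.97 to 34.3 ± 9.45 CPM (1.54 ± 0.19, adjusted p = 4.63e-05). For all 3 genes the levels of WT_cold lay below those of the other 3 groups: at room temperature Klhdc7a was at 202 ± 40.6 CPM in WT_RT and 259 ± 73.2 CPM in KO_RT, Chdh at 106 ± 7.85 and 137 ± 15.9 CPM, and Rasl12 at 65.8 ± 5.95 and 69.5 ± 18.2 CPM.

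The remaining leading genes that rose were of lower level or of mixed kind. Pgm5, a phosphoglucomutase relative of cell adhesion sites, rose from 2.91 ± 0.772 to 11.9 ± 3.20 CPM (2.03 ± 0.23, adjusted p = 9.7e-06). The imprinted gene Zdbf2 rose from 2.96 ± 1.62 to 11.7 ± 3.005 CPM (1.98 ± 0.34, adjusted p = 0.000713). Ppl, the cytolinker periplakin, was at 1.56 ± 0.630 against 5.57 ± 1.87 CPM (1.83 ± 0.30, adjusted p = 0.000485). Ifi27l2a, an interferon-inducible gene, was at 63.7, 80.9, 52.7, 79.2 and 57.4 CPM against 143, 180.1, 329, 189 and 196 CPM (1.63 ± 0.21, adjusted p = 6.96e-05), with KO_cold replicate 3 well above the rest. Cnn1, the smooth muscle actin-binding protein calponin, was at 6.09, 7.21, 8.88, 6.46 and 3.72 CPM against 22.9, 32.0, 18.5, 13.9 and 14.0 CPM (1.65 ± 0.25, adjusted p = 0.000232). It was the only one of 12 smooth muscle and pericyte markers to pass, while the mean log2 CPM of that list was 5.15 ± 0.1156 in KO_cold and 4.892 ± 0.1387 in WT_cold (exact 2-sided permutation p = 0.00794, adjusted p = 0.0317, n = 5 per group). The adjusted p rose to between 0.0635 and 0.127 without WT_cold replicate 2 or 5 or any 1 KO_cold library. The list mean includes Cnn1 itself, so it is no independent measure beside that gene. The median log2 fold change of the 12 markers was 0.164. The part of smooth muscle cells in the change of Cnn1 was not tested.

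**Figure D2:**
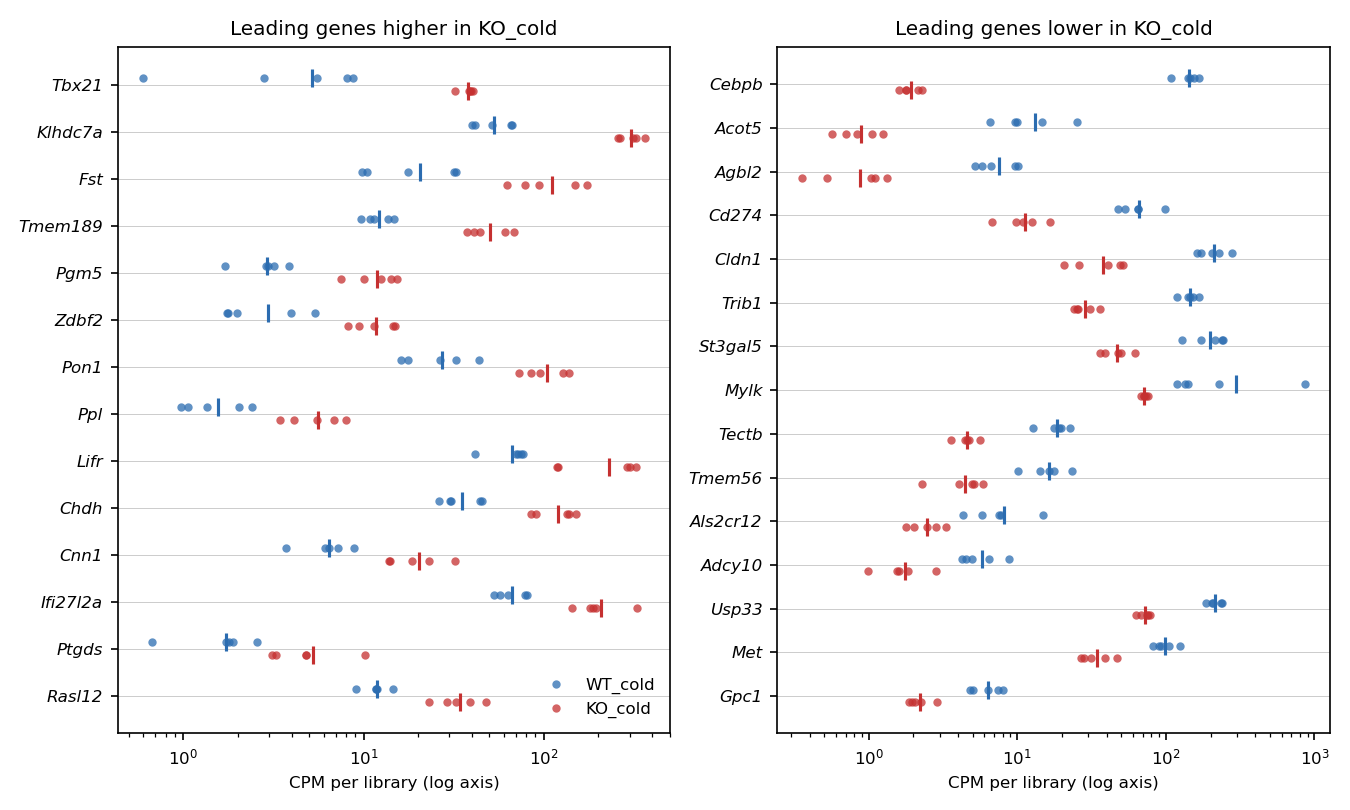
Points give the CPM of each library on a log axis for 14 of the 15 leading genes higher in KO_cold (left) and the 15 lower (right), with WT_cold in blue, KO_cold in red and a bar at each mean. The 5 and 5 points of a gene do not overlap, which the choice of these genes required, and the single WT_cold point of Mylk at 859.5 CPM stands apart.

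Promoter sequences, 250 bases before to 50 bases after a RefSeq transcription start on GRCm38.p6, were at hand for 20 of the 30 leading genes (26 promoters). They were searched on both strands for the palindromic C/EBP site TTGCGCAA, the looser site TTGCNNAA (an N stands for any base, so it includes the palindrome), the C/EBP-ATF composite site TGATGCAA and the cAMP response element TGACGTCA. Among 32851 promoters of the same length these letters occur in 0.183%, 10.8%, 0.895% and 1.79%. The palindrome and the composite site were in none of the 26, the looser site in 2 (7.69%) and the response element in 1 (3.85%). A match is only a description of the letters, not a binding site. The 3 promoters with a match all belong to genes that rose, and their 250 bases upstream are shown in lower case, 5′ to 3′ on the strand of the gene, with the match in capitals. Klhdc7a holds a further looser match downstream of the start, which is not shown.
Klhdc7a, chr4:139968027-139968276, minus strand, looser C/EBP site at -237: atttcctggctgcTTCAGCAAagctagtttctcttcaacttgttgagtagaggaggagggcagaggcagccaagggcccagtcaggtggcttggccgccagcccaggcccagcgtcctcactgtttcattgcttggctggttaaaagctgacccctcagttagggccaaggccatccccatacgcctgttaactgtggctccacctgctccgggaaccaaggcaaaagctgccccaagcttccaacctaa
Pon1, chr6:5193947-5194196, minus strand, looser C/EBP site at -73: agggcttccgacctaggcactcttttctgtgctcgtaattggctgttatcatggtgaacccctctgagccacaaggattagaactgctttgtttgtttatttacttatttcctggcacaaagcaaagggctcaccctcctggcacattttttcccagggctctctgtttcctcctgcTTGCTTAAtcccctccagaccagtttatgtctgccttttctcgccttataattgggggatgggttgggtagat
Zdbf2, the downstream of its 2 starts, chr1:63273019-63273268, plus strand, cAMP response element at -59: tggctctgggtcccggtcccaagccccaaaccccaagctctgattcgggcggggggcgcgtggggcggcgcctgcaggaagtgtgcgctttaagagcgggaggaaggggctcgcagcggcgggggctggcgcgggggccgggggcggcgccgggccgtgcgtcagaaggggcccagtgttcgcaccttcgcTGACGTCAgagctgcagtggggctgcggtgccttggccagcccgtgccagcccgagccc
Positions count from the transcription start, and give the first base of the match as read along the gene.

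Genes of heat production and of the response to noradrenaline were read as a list of 24, of which 1 rose and 4 fell (20.8%, against 7.7% of all tested genes), with a median difference of 0.00172. Ucp1 itself was not called (0.11 ± 0.11, adjusted p = 0.654): its libraries ran from 10836 to 12702 CPM in WT_cold and from 11756 to 13632 CPM in KO_cold. Adrb3, the beta-3 adrenergic receptor, was at 59.3, 50.3, 50.9, 67.8 and 57.4 CPM in WT_cold and at 28.3, 13.7, 15.3, 30.1 and 24.7 CPM in KO_cold (-1.34 ± 0.21, adjusted p = 0.000463). Every knockout library lay below every wild-type library. Elovl3, a fatty acid elongase of cold-exposed brown fat, was at 358, 344, 238, 341 and 314 CPM against 83.1, 149, 156, 91.0 and 118 CPM (-1.42 ± 0.35, adjusted p = 0.0162). Esrrb, an orphan nuclear receptor, was the member that rose, with means of 7.06 ± 2.87 and 17.3 ± 3.25 CPM (1.30 ± 0.26, adjusted p = 0.00285).

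Dio2 makes active thyroid hormone. It was at 3673 ± 734 and 2279 ± 338 CPM (-0.69 ± 0.26, adjusted p = 0.127). Of the alternatives run it passed only in the fit of the 2 cold groups alone (adjusted p = 0.0104). Irf4, a transcription factor of the thermogenic response, was at 12.1, 19.95, 45.6, 18.3 and 30.4 CPM against 6.86, 9.96, 10.2, 11.3 and 9.40 CPM (-1.40 ± 0.36, adjusted p = 0.0206), and its call was lost without WT_cold replicate 3, WT_cold replicate 5 or KO_cold replicate 1 (adjusted p up to 0.0593). The coactivator gene Ppargc1b differed by -0.27 ± 0.080 (adjusted p = 0.0394), a call lost on leaving out any 1 of 8 of the 10 cold libraries (adjusted p up to 0.126). The mean log2 CPM of the brown adipocyte markers was 8.604 ± 0.1222 in WT_cold and 8.4 ± 0.07034 in KO_cold (exact 2-sided permutation p = 0.00794, adjusted p = 0.0317, n = 5 per group), and its part in these differences was not tested. On leaving out any 1 KO_cold library its adjusted p was 0.0952 to 0.127. That list shares Ucp1, Elovl3, Cidea, Cox7a1, Cox8b and Zic1 with the thermogenic list, and its calls were Elovl3, Plin1 and Pparg. The list mean includes these called genes, and the median log2 fold change of its 12 members was -0.0656.

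Of 20 adipogenic transcription factors, 2 rose and 4 fell (30%, median -0.159). Pparg, the master regulator of fat cells, was at 202, 234, 214, 261 and 204 CPM in WT_cold and at 163, 149, 163, 177 and 152 CPM in KO_cold (-0.47 ± 0.080, adjusted p = 0.000411). Rxra, its dimer partner, fell from 51.9 ± 9.17 to 35.8 ± 3.17 CPM (-0.54 ± 0.12, adjusted p = 0.00763), while the related Rxrg rose from 44.7 ± 3.66 to 60.4 ± 6.61 CPM (0.43 ± 0.089, adjusted p = 0.00302). Ebf3 rose by 0.59 ± 0.14 (adjusted p = 0.00914), but not in the fit of the 2 cold groups alone (adjusted p = 0.0624). The call of Ebf2, a factor of brown fat identity (-0.47 ± 0.14, adjusted p = 0.0393), was lost on leaving out any 1 of 9 of the 10 cold libraries (adjusted p up to 0.133). Klf9 and Ebf1, the most abundant members, differed by -0.12 and 0.11 and did not pass.

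Of 25 immediate early genes that cAMP induces, 5 rose and none fell (20%), and the median of the list was 0.309. Nr4a2, an orphan nuclear receptor, was at 108, 148, 159, 118 and 43.1 CPM in WT_cold and at 228, 367, 300.2, 269 and 433 CPM in KO_cold (1.47 ± 0.27, adjusted p = 0.00218). WT_cold replicate 5 was the lowest of the 10 libraries for Nr4a2. Atf3, a stress-inducible leucine zipper factor, rose from 19.3 ± 6.87 to 48.0 ± 6.01 CPM (1.31 ± 0.26, adjusted p = 0.0038), and the AP-1 factor Junb from 8.53 ± 1.10 to 16.7 ± 4.35 CPM (0.96 ± 0.17, adjusted p = 0.000898). Calls of the antiproliferative gene Btg2 (0.51 ± 0.13, adjusted p = 0.0156) and of the salt-inducible kinase gene Sik1 (0.997 ± 0.29, adjusted p = 0.048) were less firm. That of Btg2 was lost without WT_cold replicate 4 or KO_cold replicate 5 (adjusted p up to 0.0585), and that of Sik1 on leaving out any 1 of the 10 libraries (up to 0.121). Nr4a3, a relative of Nr4a2, was at 222 ± 73.5 and 431 ± 80.1 CPM without overlap, yet did not pass (0.96 ± 0.42, adjusted p = 0.2).

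Among 18 tested genes of lipolysis and the lipid droplet, 1 rose and 2 fell (16.7%, median -0.158). Abhd5, the activator of the lipase ATGL, was at 289, 285, 319, 319 and 341 CPM in WT_cold and at 223, 175, 187, 181 and 187 CPM in KO_cold (-0.70 ± 0.083, adjusted p = 7.8e-06). Plin1, the coat protein that holds Abhd5 on the droplet at rest, fell from 874 ± 139.6 to 659 ± 39.5 CPM (-0.41 ± 0.082, adjusted p = 0.00239). The glycerol channel gene Aqp7 rose from 209 ± 23.7 to 276 ± 20.4 CPM (0.40 ± 0.090, adjusted p = 0.00678). Pnpla2, which encodes ATGL itself, was at 1806 ± 77.4 and 1761 ± 106 CPM and did not pass (-0.04 ± 0.062, adjusted p = 0.819).

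Fatty acid uptake genes fell in 3 of 16 (18.8%, median -0.142). The fatty acid binding protein gene Fabp5 was at 24.8 ± 2.56 and 18.3 ± 1.43 CPM (-0.44 ± 0.091, adjusted p = 0.00312). Vldlr, the very low density lipoprotein receptor, differed by -0.70 ± 0.18 (adjusted p = 0.0185) and was not called without WT_cold replicate 5 (adjusted p = 0.0553). Acsl1, which activates fatty acids, differed by -0.35 ± 0.10 (adjusted p = 0.0386), a call lost on leaving out any 1 of 6 of the 10 cold libraries (up to 0.134). Lpl, lipoprotein lipase, was at 12545 ± 850.4 and 11096 ± 810.1 CPM (-0.18 ± 0.10, adjusted p = 0.371). Oxidation and synthesis of fatty acids had 1 call of 23 in each list (4.35%). Ucp3 was higher (0.46 ± 0.13, adjusted p = 0.0342) and Agpat2 lower (-0.79 ± 0.23, adjusted p = 0.044), calls that were lost without any 1 of 5 and 7 of the 10 libraries (adjusted p up to 0.113 and 0.145). Of 20 cholesterol synthesis genes edgeR called none, and DESeq2 called 1 lower. At an unadjusted p below 0.05, 5 of the 20 were lower, against 20% of all tested genes in either direction.

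Of 21 insulin signalling genes, 4 fell and none rose (19%, median -0.042), Trib1 among them. Insr, the insulin receptor, was at 150.4, 155, 151, 168 and 209 CPM in WT_cold and at 91.3, 94.2, 89.6, 101 and 101 CPM in KO_cold (-0.80 ± 0.088, adjusted p = 2.71e-06). Irs1, a main substrate of the receptor, differed by -0.55 ± 0.13 (adjusted p = 0.0129), but did not pass in the fit of the 2 cold groups alone (adjusted p = 0.083). Irs2 stood higher in KO_cold, at 434 ± 24.2 against 279 ± 85.6 CPM, and did not pass (0.64 ± 0.27, adjusted p = 0.191).

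Glycogen genes fell in 4 of 19 (21.1%, median -0.212) and rose in none. Gyg, glycogenin, which primes new glycogen, was at 113, 130.5, 103, 103 and 150.1 CPM in WT_cold and at 69.5, 60.3, 64.8, 70.7 and 58.0 CPM in KO_cold (-0.89 ± 0.10, adjusted p = 6.05e-06). Ugp2, which makes the sugar donor UDP-glucose, fell from 228 ± 21.7 to 174 ± 6.45 CPM (-0.39 ± 0.084, adjusted p = 0.00486), and Gys1, glycogen synthase, from 187 ± 23.8 to 143 ± 19.0 CPM (-0.38 ± 0.089, adjusted p = 0.00785). The phosphorylase kinase subunit gene Phka2 differed by -0.27 ± 0.078 (adjusted p = 0.0323), a call lost on leaving out any 1 of 7 of the 10 libraries (up to 0.112). Gbe1, the branching enzyme, was at 311 ± 32.1 and 311 ± 31.1 CPM and did not pass (adjusted p = 0.993). In glucose uptake and glycolysis 2 of 24 were higher (8.33%), a share near that of all genes. These were hexokinase 1, Hk1 (0.50 ± 0.10, adjusted p = 0.00136), and the monocarboxylate transporter gene Slc16a1 (0.32 ± 0.10, adjusted p = 0.0432), the latter lost on leaving out any 1 of 7 libraries (up to 0.123).

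The mitochondrial lists held few calls. Of 28 nuclear-encoded and 13 mitochondrially encoded respiratory chain genes edgeR called none, with medians of -0.0208 and 0.195. At an unadjusted p below 0.05, which 20% of all tested genes had, 2 nuclear-encoded genes were lower and 5 mitochondrially encoded genes higher. DESeq2 called 2 nuclear-encoded genes lower and 1 mitochondrially encoded gene higher. In the TCA cycle 2 of 23 fell (8.7%), the cytosolic malate dehydrogenase gene Mdh1 (-0.34 ± 0.084, adjusted p = 0.0125) and the succinyl-CoA ligase subunit gene Suclg2 (-0.25 ± 0.063, adjusted p = 0.0132). Among 22 genes of branched-chain amino acid breakdown, Auh alone rose (0.23 ± 0.066, adjusted p = 0.0324), a call lost on leaving out any 1 of 6 of the 10 libraries (up to 0.123).

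Stress genes gave mixed directions. The heme and purine breakdown list had 4 of 18 lower (22.2%, median -0.129). Xdh, xanthine dehydrogenase, the last enzyme of purine breakdown to urate, was at 57.8, 74.7, 97.2, 108 and 98.7 CPM in WT_cold and at 35.4, 40.03, 34.9, 39.4 and 34.4 CPM in KO_cold (-1.24 ± 0.17, adjusted p = 0.0001). The constitutive heme oxygenase gene Hmox2 fell from 53.9 ± 5.74 to 39.5 ± 2.90 CPM (-0.45 ± 0.066, adjusted p = 0.000101), while the inducible Hmox1, at 243 ± 63.0 and 342 ± 46.0 CPM, did not pass (0.49 ± 0.27, adjusted p = 0.347). The call of Pnp, purine nucleoside phosphorylase (-0.42 ± 0.12, adjusted p = 0.0414), was lost on leaving out any 1 of 6 of the 10 libraries (up to 0.124). Of 21 antioxidant genes, 1 was called (4.76%): Srxn1, sulfiredoxin, which repairs oxidised peroxiredoxins, at 111, 135, 121, 132 and 89.4 CPM against 243, 340.0, 305, 258 and 264 CPM (1.26 ± 0.13, adjusted p = 2.05e-06).

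In the unfolded protein response 2 of 23 rose and 2 fell (17.4%). The sensor kinase genes Eif2ak3, or PERK (0.38 ± 0.091, adjusted p = 0.00997), and Ern1, or IRE1 (0.31 ± 0.077, adjusted p = 0.0111), rose, while the sensor gene Atf6 fell from 91.2 ± 6.43 to 66.4 ± 3.82 CPM (-0.46 ± 0.056, adjusted p = 1.04e-05). Dnajb9, a chaperone of the endoplasmic reticulum, fell from 162 ± 21.7 to 94.5 ± 11.7 CPM (-0.77 ± 0.12, adjusted p = 0.000179), and the abundant Hspa5 did not pass (0.01 ± 0.074, adjusted p = 0.977). The integrated stress response list had 3 of 23 higher and 2 lower (21.7%): Sesn2 (0.85 ± 0.12, adjusted p = 5.88e-05) and Nupr1 (0.68 ± 0.14, adjusted p = 0.00393) rose and Atf5 fell (-0.54 ± 0.13, adjusted p = 0.0101). Its other calls, Shmt2 (0.30) and Asns (-0.30), were lost on leaving out any 1 of 6 and 3 of the 10 libraries (up to 0.139 and 0.0762). Of 18 heat shock genes only the cochaperone gene Bag3 was called (5.56%), at 137, 160.2, 129, 118 and 72.2 CPM in WT_cold and 221, 274, 241, 220.2 and 265 CPM in KO_cold (0.99 ± 0.15, adjusted p = 0.000224).

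Among 18 tested acute phase and inflammatory genes, 1 rose and 2 fell (16.7%), Cd274 among the latter. Il1rn, the natural antagonist of the interleukin 1 receptor, was at 0.723, 0.872, 0.823, 1.04 and 0.620 CPM in WT_cold and at 4.03, 5.37, 3.79, 5.78 and 2.64 CPM in KO_cold (2.41 ± 0.29, adjusted p = 1.4e-05). The acute phase gene Serpina3n (-1.30 ± 0.37, adjusted p = 0.0362) was -0.71 without WT_cold replicate 5 (adjusted p = 0.115) and was also lost without any 1 of 5 further libraries. Complement C3 and haptoglobin, Hp, were abundant in both groups and did not pass (-0.10 ± 0.25, adjusted p = 0.886, and -0.56 ± 0.24, adjusted p = 0.199). Without WT_cold replicate 5 they were 0.13 (adjusted p = 0.849) and -0.24 (adjusted p = 0.571).

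Of 23 tested secreted factors, 2 rose and 1 fell (13%). Nrg4, a growth factor that brown fat releases, was at 160.4, 225, 251, 204 and 226 CPM in WT_cold and at 103, 144, 120.4, 81.5 and 102 CPM in KO_cold (-0.95 ± 0.13, adjusted p = 5.58e-05). The chemokine gene Cxcl14 rose from 35.2 ± 4.81 to 89.9 ± 42.4 CPM (1.35 ± 0.26, adjusted p = 0.00338). Bmp8b, at 1.03 ± 0.791 and 3.14 ± 1.18 CPM, was called (1.60 ± 0.43, adjusted p = 0.0269) and lost on leaving out any 1 of 6 of the 10 libraries (up to 0.0786). Adipoq, adiponectin, was at 734 ± 70.0 and 715 ± 68.1 CPM (-0.04 ± 0.073, adjusted p = 0.842). Beside St3gal5, 1 further gene of 16 tested for ganglioside synthesis and sialyltransferases fell (12.5% in all): St3gal6, from 23.2 ± 2.45 to 12.7 ± 1.74 CPM (-0.87 ± 0.10, adjusted p = 8.03e-06).

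Genes of the extracellular matrix rose in 6 of 23 and fell in none (26.1%, median 0.229). Mmp2, a matrix metalloproteinase, rose from 21.1 ± 2.17 to 27.8 ± 1.88 CPM (0.39 ± 0.090, adjusted p = 0.00769), and the collagen gene Col6a1 from 64.5 ± 5.12 to 79.1 ± 3.67 CPM (0.29 ± 0.074, adjusted p = 0.0149). Col1a2 (0.35), Col5a1 (0.33) and Col15a1 (0.30) were called too, but were lost on leaving out any 1 of 3, 3 and 7 of the 10 libraries (up to 0.0717, 0.0531 and 0.0777). Of the fibroblast and adipocyte progenitor markers, 5 of 14 were higher (35.7%, median 0.281). Lum, a matrix proteoglycan, rose from 26.1 ± 2.29 to 36.5 ± 2.03 CPM (0.48 ± 0.10, adjusted p = 0.00285), Pdgfra, a receptor that marks progenitors, from 19.8 ± 0.735 to 26.4 ± 2.71 CPM (0.41 ± 0.081, adjusted p = 0.00172), and Dcn, decorin, from 167 ± 13.2 to 205 ± 10.3 CPM (0.29 ± 0.074, adjusted p = 0.0146). Fbn1 (0.36) and Gsn (0.27) were called as well, and were lost on leaving out any 1 of 5 and 6 of the 10 libraries (up to 0.122 and 0.102). The mean log2 CPM of these markers was 4.641 ± 0.079 in KO_cold and 4.4 ± 0.05978 in WT_cold (exact 2-sided permutation p = 0.00794, adjusted p = 0.0317, n = 5 per group). The difference was 0.241, and 0.218 to 0.265 on leaving out any 1 KO_cold library. In these runs the exact p stayed at 0.00794, while the adjusted p was 0.0635. The part of these markers in the matrix genes was not tested.

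In the clock list 2 of 20 rose and 1 fell (15%). The nuclear receptor gene Rora fell from 25.6 ± 3.41 to 18.9 ± 2.04 CPM (-0.44 ± 0.10, adjusted p = 0.00707) and Cry2, a clock repressor, rose from 20.9 ± 1.99 to 29.8 ± 5.05 CPM (0.51 ± 0.12, adjusted p = 0.00732). Rorb (1.52 ± 0.39, adjusted p = 0.0184) was lost without WT_cold replicate 4 or KO_cold replicate 3 (up to 0.0662). Of 18 glucocorticoid-responsive genes, Glul, glutamine synthetase, alone was called (5.56%), falling from 2051 ± 572 to 1238 ± 57.9 CPM (-0.73 ± 0.15, adjusted p = 0.0046). Of 17 proliferation genes neither edgeR nor DESeq2 called any. At an unadjusted p below 0.05, 1 was lower, against 20% of all tested genes in either direction.

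**Figure D3:**
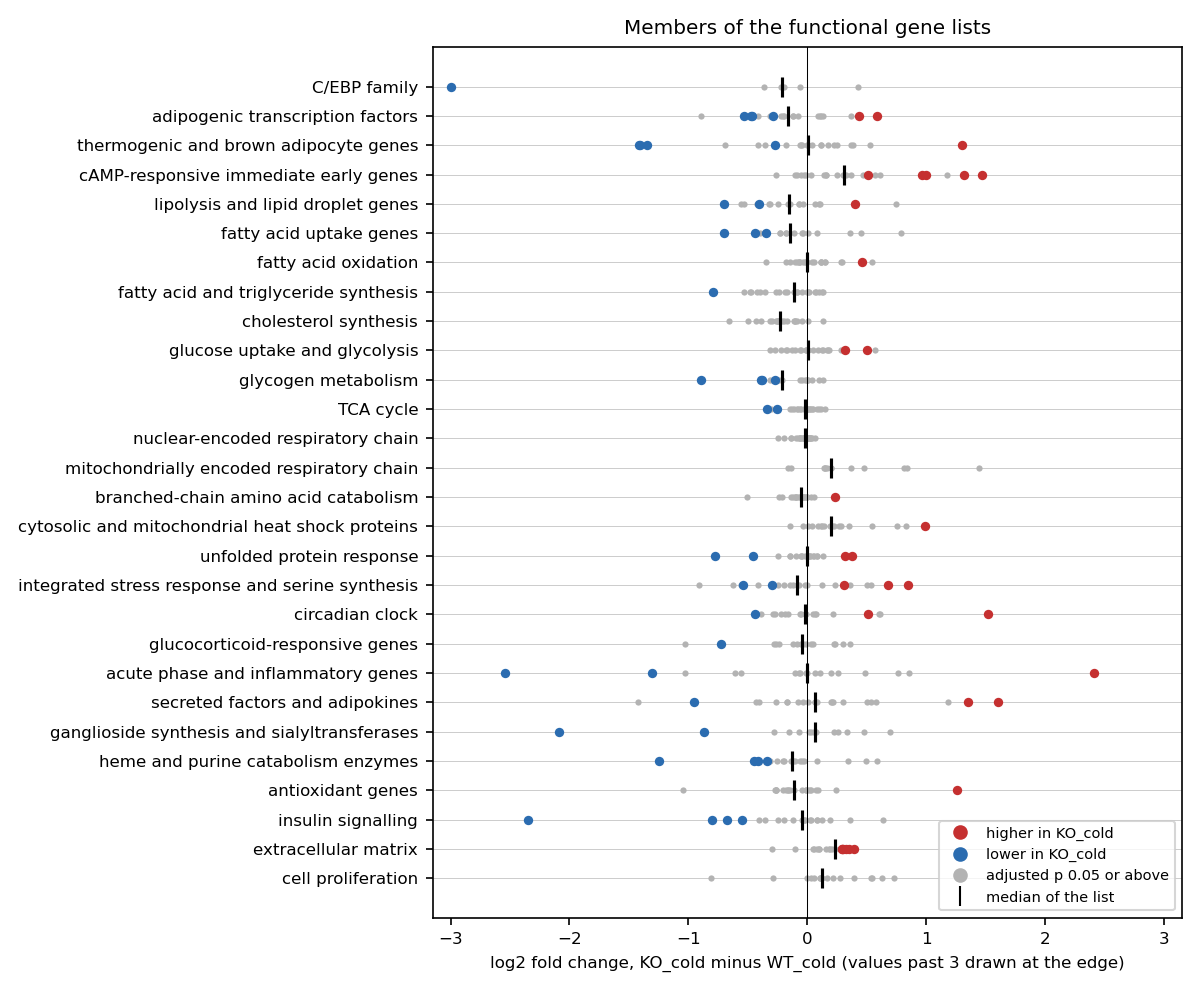
Each row is 1 of the 28 functional lists and each point a tested member, placed by its log2 fold change, KO_cold minus WT_cold. Red and blue points passed the test, grey points did not, black bars are medians, and Cebpb, at -6.23, is drawn at the left edge. The 4 lists without a coloured point are cholesterol synthesis, both respiratory chain lists and cell proliferation.

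The effect of the knockout in the cold was then set beside that at room temperature. The 2 comparisons share no library. At room temperature 411 genes passed (2.7%), 210 higher in the knockout (1.38%) and 201 lower (1.32%). Of these, 199 also passed in the cold, 48.4% of the room temperature calls and 17% of the cold calls, and 197 of the 199 had the same direction, 87 higher and 110 lower. Of the 30 leading genes, 6 that rose and 9 that fell in the cold were called in the same direction at room temperature. A gene called at 1 temperature only is not thereby shown to differ, and the difference itself was tested as the interaction of genotype and temperature. It passed for 113 genes (0.742%), 65 with a higher value in the cold than at room temperature (0.427%) and 48 with a lower one (0.315%); an unadjusted p below 0.05 was found for 1545 genes (10.1%). In 101 of the 113 the effect of the knockout was larger in the cold.

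Some leading genes were called at both temperatures. St3gal5 changed by -1.996 at room temperature (adjusted p = 4.23e-05) and -2.08 in the cold, with an interaction of -0.09 ± 0.31 (adjusted p = 0.966). Tmem56 (-2.06, adjusted p = 4.36e-05), Gpc1 (-1.60, adjusted p = 5.23e-05), Pgm5 (1.90, adjusted p = 4.42e-05) and Pon1 (1.56, adjusted p = 0.00129) were likewise called at room temperature, and their interactions did not pass. Cldn1 was lower in the knockout at room temperature too, at 13.8 ± 8.38 CPM against 52.0 ± 18.1 CPM (-1.90, adjusted p = 0.00999).

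Interactions were ranked among genes with a mean of at least 5 CPM in any of the 4 groups and more than a predicted gene's name, and 8 were taken in each direction. Genes of lower level, such as Sox9 (2.54 ± 0.54, adjusted p = 0.0275) and Ttpa (-2.95 ± 0.61, adjusted p = 0.0261), named after their values were seen, had larger ones. The positive ones were those of Klhdc7a (2.16 ± 0.27, adjusted p = 0.000853), Cnn1 (1.85 ± 0.36, adjusted p = 0.0202), Lifr (1.81 ± 0.35, adjusted p = 0.0208), the homeobox gene Prox2 (1.46 ± 0.23, adjusted p = 0.00332), Rasl12 (1.46 ± 0.27, adjusted p = 0.0146), Chdh (1.39 ± 0.24, adjusted p = 0.0081), the phosphatase gene Dusp18 (1.23 ± 0.24, adjusted p = 0.0207) and Bag3 (1.18 ± 0.21, adjusted p = 0.012). Lifr was at 42.9 ± 2.38 CPM in WT_RT, 42.2 ± 2.87 CPM in KO_RT, 66.9 ± 14.4 CPM in WT_cold and 230.4 ± 102 CPM in KO_cold. Prox2 was at 6.93 ± 0.883 and 6.12 ± 0.840 CPM at room temperature and at 2.35 ± 0.345 and 5.74 ± 1.72 CPM in the cold, so that WT_cold was the low group. The effects on Dusp18 had opposite signs, -0.64 at room temperature (adjusted p = 0.0527) and 0.59 in the cold (adjusted p = 0.0417, lost on leaving out any 1 of 7 libraries). With both WT libraries that lay nearest the middle of the cold axis left out (WT_RT replicate 4 and WT_cold replicate 5), the interaction of Lifr did not pass (1.66, adjusted p = 0.0648). Those of Cnn1 and Dusp18 did not pass without the expression filter (adjusted p = 0.0632 and 0.0643).

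The negative interactions taken by this rule were led by Cd274 (-2.22 ± 0.33, adjusted p = 0.00373), which was at 122 ± 11.1 CPM in WT_RT and 97.4 ± 29.3 CPM in KO_RT, and by Tectb (-1.89 ± 0.25, adjusted p = 0.000722), at 3.11 ± 0.800 and 2.89 ± 0.610 CPM. Tectb was thus high in WT_cold only, among the 4 groups. Adrb3 followed (-1.44 ± 0.30, adjusted p = 0.0261), at 93.0 ± 20.5 CPM in WT_RT and 99.7 ± 20.4 CPM in KO_RT. Its interaction did not pass without WT_RT replicate 3, WT_cold replicate 4 or KO_RT replicate 2 (adjusted p = 0.0516, 0.054 and 0.053), and with both intermediate WT libraries left out its adjusted p was 0.0754. The interaction of Adrb3 also did not pass without the expression filter (adjusted p = 0.0643). Xdh (-1.27 ± 0.24, adjusted p = 0.0173) was at 85.9 ± 17.2 and 87.6 ± 17.6 CPM at room temperature, close to its level in WT_cold, and did not pass with both intermediate WT libraries left out (adjusted p = 0.0633).

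The rest of these 8 genes were Cblb, a ubiquitin ligase (-1.27 ± 0.26, adjusted p = 0.0261), Slc16a10, a transporter of aromatic amino acids (-1.20 ± 0.18, adjusted p = 0.00212), Rgcc, a cell cycle regulator (-1.17 ± 0.20, adjusted p = 0.00692), and Lurap1 (-1.15 ± 0.13, adjusted p = 0.000333). Rgcc was at 79.4 ± 15.5 and 84.7 ± 10.6 CPM at room temperature and at 186 ± 31.1 CPM in WT_cold and 88.0 ± 13.1 CPM in KO_cold. Lurap1 was lowest in KO_cold, at 40.8, 34.2, 33.8, 47.0 and 44.7 CPM in WT_cold and 16.2, 16.5, 17.5, 19.7 and 17.2 CPM in KO_cold. The interaction of Cblb did not pass without WT_RT replicate 1 or 5, KO_RT replicate 1, 2 or 3, or KO_cold replicate 1 (adjusted p = 0.0516 to 0.0554). Without the expression filter its adjusted p was 0.0643. Trib1, Usp33 and Met, called at both temperatures, had a larger difference between genotypes in the cold. Their interactions were -0.98 ± 0.18 (adjusted p = 0.012), -0.91 ± 0.12 (adjusted p = 0.000689) and -0.87 ± 0.19 (adjusted p = 0.0363). Whether these interactions hold with a library left out was not examined. Trib1 was at 85.1 ± 12.2 CPM in WT_RT, 32.8 ± 5.25 in KO_RT, 145 ± 17.9 in WT_cold and 28.3 ± 4.99 in KO_cold. In the same order Usp33 was at 94.1 ± 8.97, 59.5 ± 5.59, 214 ± 22.5 and 72.0 ± 6.49 CPM. Met was at 78.5 ± 4.37, 49.7 ± 6.72, 98.9 ± 16.6 and 34.3 ± 8.33 CPM. Tbx21 and Fst did not pass this test (2.86 ± 0.68, adjusted p = 0.0677, and 2.13 ± 0.50, adjusted p = 0.0662).

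**Figure D4:**
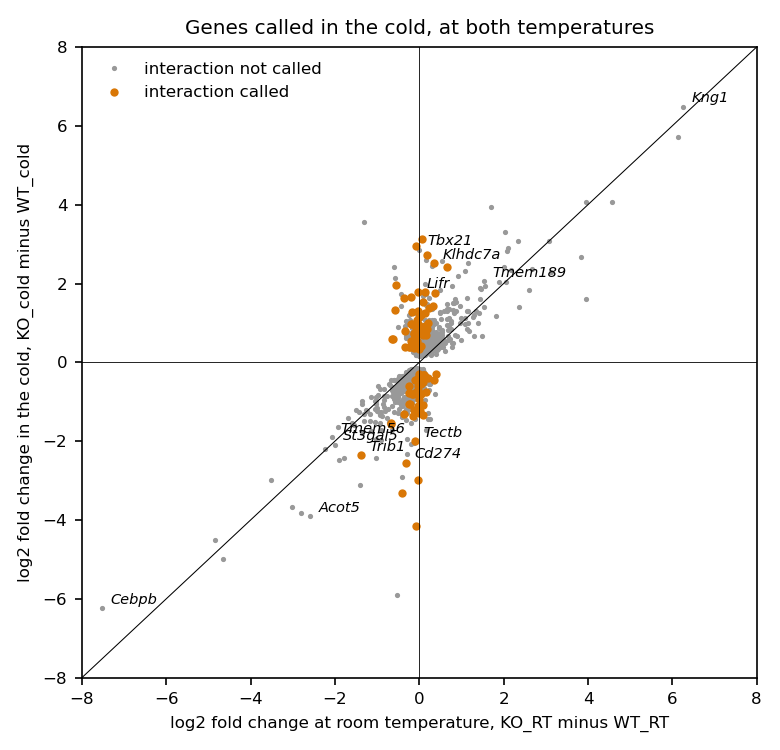
Each point is a gene called in the cold, with its log2 fold change (KO minus WT) at room temperature on the horizontal axis and in the cold on the vertical axis. The line marks equal effects and orange points are the 104 of these genes whose interaction passed. Klhdc7a and Cd274 lie near 0 at room temperature and far from 0 in the cold, and Cebpb and St3gal5 are low at both.

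A last group was chosen after its values were seen: the genes around Cebpb on chromosome 2. Within 1 Mb on each side 30 other genes were tested, 4 of which were called in the cold (13.3%, against 7.7% of all tested genes), all higher in KO_cold. At room temperature 6 were called (20%, against 2.7%), the same 4 among them. Tmem189, the desaturase that makes plasmalogens, lies on the opposite strand and its gene model (chromosome 2, 167642608 to 167689822) overlaps that of Cebpb. It was at 11.4, 10.9, 9.73, 13.7 and 14.8 CPM in WT_cold and at 44.4, 37.4, 41.1, 60.9 and 68.3 CPM in KO_cold (2.06 ± 0.16, adjusted p = 8.98e-08), and it was higher at room temperature too (1.53, adjusted p = 4.5e-06). The long non-coding RNA genes A530013C23Rik (2.03 ± 0.20, adjusted p = 8.65e-07), Gm14321 (2.67 ± 0.44, adjusted p = 0.000293) and 9230111E07Rik (2.91 ± 0.52, adjusted p = 0.000726) were low in all groups, with means of 2.06 ± 0.244, 0.912 ± 0.338 and 0.532 ± 0.344 CPM in KO_cold against 0.507 ± 0.168, 0.142 ± 0.0781 and 0.0719 ± 0.0521 CPM in WT_cold. They lie 0.8, 87 and 91.6 kb from Cebpb. Whether the altered allele itself takes part in these changes was not tested.

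**Figure D5:**
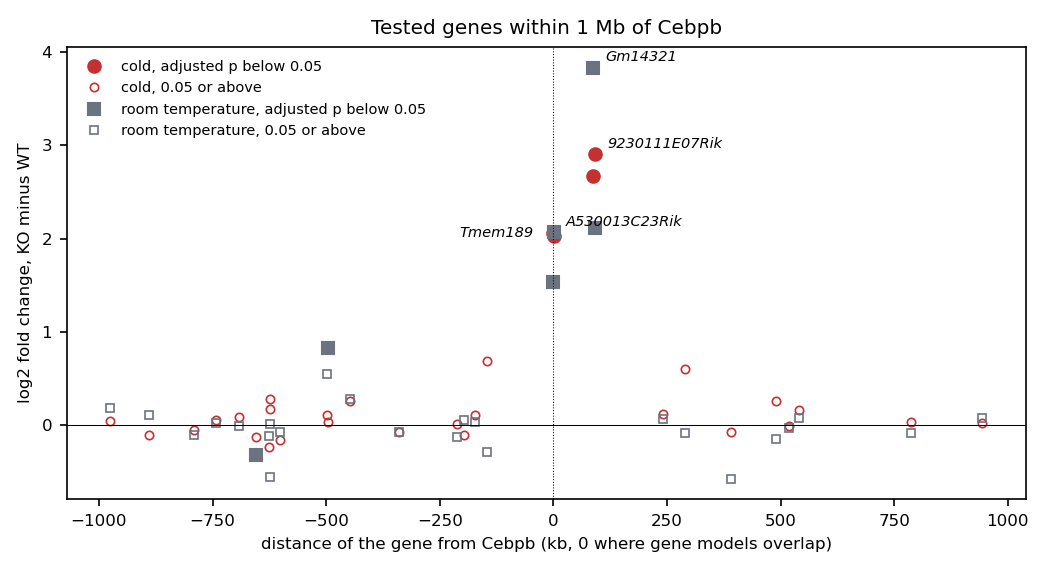
The plot places the 30 tested genes within 1 Mb of Cebpb by their distance from it in kb (0 where gene models overlap) and by their log2 fold change, KO minus WT, in the cold (red circles) and at room temperature (grey squares); filled symbols passed the test. The 4 genes called in the cold lie between 0 and 91.6 kb and are all higher in the knockout.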

How the data were processed

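Libraries were made from total RNA with a KAPA stranded mRNA-seq kit, per the labels' protocols. Reads were processed with Trim Galore 0.6.0 and STAR 2.7.8a on GRCm38.p6, per the submitters' processing notes; the annotation release is not given in the sources used here. The deposited values are whole-number counts of reads per gene for 55471 genes, and the authors' columns for both strands and each strand are kept apart. The reverse strand, with 95.1% to 95.7% of stranded counts in the cold libraries, was used. The entries that name no gene, 27.6% to 29.6% of counts, were left out. Coordinates come from GENCODE M21.

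The analysis used edgeR 4.0.16 under R 4.3.3. filterByExpr (count minimum 10, total minimum 15) kept 15233 genes. After TMM scaling, all 20 libraries in 4 groups entered a single robust quasi-likelihood model with 16 residual degrees of freedom, from which each contrast was taken. Adjustment was by Benjamini-Hochberg across the genes tested, and 0.05 was the threshold. CPM are counts over the TMM-scaled library size. The procedure was tested on simulated data. The median log2 difference of all tested genes was 0.00209.

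Genes were named by rule: the C/EBP family, 15 leading genes per direction, up to 5 called and 2 abundant uncalled members of each of 39 lists (28 functional and 11 marker lists), and 8 interaction genes per direction. Other genes were chosen after their values were seen. The comparison and the lists were chosen with earlier results of these data known, so the lists' counts and medians are descriptions with no test. The alternatives were RLE scaling, no expression filter, DESeq2 1.42.0, the replicate block, both strands' counts, a covariate for skeletal muscle markers, only the 2 groups compared, each library left out, and both intermediate WT libraries left out. The list entry Wdnm1-like matched no gene. The promoter sequences are those of RefSeq. Some genes that the rule names are not reported here, though they count in the totals.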

Additional observations from a re-analysis of the deposited data

Results flagged for a closer look

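In 6 of 62 groups of 5 libraries checked among the leading genes and Cebpa, 1 library lay far from the others by Dixon's criterion, which chance meets in about 1 in 20 groups. KO_cold replicate 5 was low for Tbx21, at 32.04 CPM, and WT_cold replicate 5 was low for Lifr, at 41.52 CPM. KO_cold replicate 3 was high for Ifi27l2a, at 329 CPM, and KO_cold replicate 1 was high for Ptgds, at 10.21 CPM. WT_cold replicate 4 was high for Mylk, at 859.5 CPM, and WT_cold replicate 5 was high for Cebpa, at 261.8 CPM. Leaving out the distant library ended none of the calls of Tbx21, Lifr, Ifi27l2a, Ptgds and Mylk, and Cebpa was not called.

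The difference between the knockout effects in the cold and at room temperature passed edgeR's quasi-likelihood test for 113 genes. The 16 taken by rank are listed here, and some other genes named above passed too. The log2 difference of the effects was 2.16 for Klhdc7a, 1.85 for Cnn1, 1.81 for Lifr, 1.46 for Prox2, 1.46 for Rasl12, 1.39 for Chdh, 1.23 for Dusp18 and 1.18 for Bag3. It was -2.22 for Cd274, -1.89 for Tectb, -1.44 for Adrb3, -1.27 for Xdh, -1.27 for Cblb, -1.2 for Slc16a10, -1.17 for Rgcc and -1.15 for Lurap1.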

How the results depend on the processing

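Direction was compared for the named genes in the cold, the ranked interactions, Cebpb at room temperature and the library measures. No called value among these changed its direction under any alternative run. Of 131 named genes called in the cold, 98 passed in every alternative run for them (17 or 18 each), and 27 of the other 33 were lost on leaving out 1 library. The count of genes called in the cold was 900 with only the 2 groups compared and 1440 with DESeq2, and 928 to 1139 with 1 library left out (406 to 519 higher, 501 to 620 lower). Without the expression filter the interaction had 40 genes positive, with both intermediate WT libraries left out 29 negative, and with DESeq2 129 positive and 140 negative; DESeq2 called 317 genes lower and 629 in all at room temperature. The 411 room temperature calls were 267 without WT_RT replicate 5 and 269 without KO_RT replicate 4. The causes were not tested. With 1 library left out, the interaction gave 44 to 74 positive and 33 to 58 negative, and the room temperature comparison 135 to 202 higher and 123 to 169 lower; its lowest counts were those without KO_RT replicate 4 (135 higher) and without WT_RT replicate 5 and KO_RT replicate 3 (123 and 127 lower).

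The replicate numbers were not taken to pair the libraries, since the labels do not say what they share and not every same-numbered pair of cold libraries had a correlation over 0.1 (0.143, -0.00477, -0.00507, 0.226 and 0.274). As a hint from the data, 3 of 5 correlated best with their own number. With the replicate block 491 genes were higher and 587 lower in the cold, 1026 of them among the 1173, and of the named genes Ebf2, Fbn1, Gsn, Pnp, Serpina3n, Shmt2 and Sik1 were not called. Pairs of libraries within the cold groups all differed by more than counting error. At this depth 3 reads over a group correspond to 0.014 CPM in WT_cold and 0.0187 CPM in KO_cold, and these limits cover counting error only.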

Other observations

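The genes here were chosen after their values were seen. Kininogen 1, Kng1, a precursor of bradykinin, was near 0 in WT_cold (0.0657, 0.0379, 0.0588, 0 and 0.0477 CPM) and present in KO_cold (4.86, 3.84, 4.42, 4.14 and 3.68 CPM), a change of 6.49 ± 0.29 (adjusted p = 1.98e-12, edgeR), and it differed at room temperature too (6.26, adjusted p = 1.49e-12). Kng2, a close relative with which reads could be shared, rose from 100.4 ± 24.9 to 264 ± 35.9 CPM (1.40 ± 0.18, adjusted p = 5.3e-05). Rbp4, the retinol carrier of plasma, was at 66.0, 61.9, 62.1, 77.9 and 68.2 CPM in WT_cold and 145, 157, 149, 162 and 185 CPM in KO_cold (1.25 ± 0.11, adjusted p = 2.56e-07), and at room temperature it differed by 1.42 (adjusted p = 7e-08).

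Receptors for circulating or local signals were among the genes that fell in the cold. Klb, the coreceptor of FGF21, fell from 57.3 ± 24.7 to 24.1 ± 4.41 CPM (-1.25 ± 0.21, adjusted p = 0.000695), Tshr, the thyrotropin receptor, from 15.1 ± 6.57 to 7.16 ± 1.23 CPM (-1.08 ± 0.22, adjusted p = 0.00393), and Acvr1c, the activin receptor ALK7, from 142 ± 25.9 to 62.3 ± 9.08 CPM (-1.19 ± 0.13, adjusted p = 4.19e-06). Drd1, a dopamine receptor of low level, fell from 3.92 ± 1.54 to 0.532 ± 0.211 CPM (-2.90 ± 0.37, adjusted p = 2.73e-05). Abca1, the cholesterol exporter, was at 129 ± 48.4 and 52.7 ± 3.35 CPM (-1.30 ± 0.18, adjusted p = 0.000126), and Socs2, an inhibitor of growth hormone signalling, at 78.7 ± 30.3 and 28.3 ± 4.79 CPM (-1.48 ± 0.25, adjusted p = 0.000941). Among the genes that rose were 2 developmental transcription factors of low level. Sox9 rose from 0.746 ± 0.317 to 4.99 ± 2.76 CPM (2.73 ± 0.38, adjusted p = 7.36e-05) and Twist2 from 0.971 ± 0.323 to 3.36 ± 0.688 CPM (1.78 ± 0.22, adjusted p = 9.73e-06). Bmpr1a, a receptor of bone morphogenetic proteins, rose from 84.7 ± 12.5 to 139 ± 13.3 CPM (0.71 ± 0.10, adjusted p = 5.71e-05), and its effect was larger in the cold than at room temperature (interaction 0.79 ± 0.14, adjusted p = 0.0077).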
